A study of Mus musculus with 8 samples.

Results

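The plasminogen activator system turns the zymogen plasminogen into plasmin, a protease that dissolves fibrin and cleaves matrix proteins. Tissue-type plasminogen activator and urokinase make the activating cut. Receptors hold the enzymes at the cell surface, and serpins, alpha-2-antiplasmin among them, block the enzymes. In the cornea, a tissue without vessels of its own, the system is best known from epithelial wound healing and from vessel growth into injured tissue.

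The system was followed here through 9 genes, taken by symbol: *Plat*, *Plau*, *Plaur*, *Plg*, *Serpine2*, *Serpinb2*, *Serpinf2*, *Anxa2* and *S100a10*. All 9 were among the 54532 genes of the table. Of these 54532 genes, 23218 were listed at 0 in every cornea, and none of the 9 was among them. Total RNA had been sequenced from unmanipulated corneas of the inbred strains BALB/c (substrain BALB/cN in the study's methods) and C57BL/6N, with 4 corneas per strain and only male mice. The animals carried no transgene and received no treatment, and the methods do not give the age of these mice separately. Nothing in the labels says whether each cornea came from its own mouse, so the p-values measure the spread between these corneas, which may be partly technical. BALB/c mice are albino and C57BL/6N mice are pigmented.

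Values are regularized log (rlog) values, a log2 scale that the authors computed with library sizes already taken into account. Because rlog pulls the values of weakly counted genes towards their mean, a difference of such a gene is understated. Read depth is unknown from these values. Differences are BALB/c minus C57BL/6N. A gene was called different at an adjusted p of 0.01 or less in limma, fitted over the 25402 genes with a mean rlog of at least 0, and 8 of the 9 genes passed this filter.

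The corneas differed in tissue content within the strains, which bears on several values below. All 7 corneal epithelium markers were high in each cornea, with *Krt12* between 19.60 and 19.85. The mean rlog of the 7 stromal keratocyte markers was 12.35 in BALB/c cornea 2 and 11.44 and 11.58 in C57BL/6N corneas 3 and 4, against 14.16 to 14.50 in the other 5. The mean of the 13 lens and pigment cell markers was 8.84 and 8.80 in BALB/c corneas 1 and 4, against 5.41 to 6.69 in the other 6. Since these are bulk samples, fewer cells of a type and less RNA per cell cannot be told apart.

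The parts of these genes that make the system work can be read in the reference coding sequence (GENCODE M21, GRCm38, from the C57BL/6J genome). The first set shows what the activators and plasminogen share: 13 codons around the active-site serine, whose codon is in capitals.

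Plat: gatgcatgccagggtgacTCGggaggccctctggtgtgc

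Plau: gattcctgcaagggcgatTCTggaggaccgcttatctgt

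Plg: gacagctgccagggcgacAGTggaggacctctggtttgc

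The marked codon is number 510 in *Plat*, 378 in *Plau* and 762 in *Plg*, counted from the start codon. Over these 39 bases *Plat* and *Plg* were identical at 29, *Plat* and *Plau* at 27, and *Plau* and *Plg* at 27. The serine was encoded by a different codon in each of the 3 genes.

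The second set belongs to the cell surface co-receptor, in which annexin A2 and S100A10 chains join. The start of annexin A2 (start codon in capitals) encodes the tail that holds S100A10, and the end of S100A10 (lysine codons in capitals) encodes the lysines known to take part in binding plasminogen and tissue-type activator.

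Anxa2, first codons: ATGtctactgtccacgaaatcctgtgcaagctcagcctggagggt

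S100a10, last codons: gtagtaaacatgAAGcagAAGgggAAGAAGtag

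The stretch of *Anxa2* spans its first 15 codons, and the stretch of *S100a10* runs from codon 88 to the stop codon and holds 4 lysine codons.

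Tissue-type plasminogen activator differed most between the strains. *Plat* (chromosome 8, 22757727 to 22782844, plus strand; all positions are GRCm38) had rlog values of 10.69, 10.79, 10.77 and 10.76 in BALB/c corneas 1 to 4. In C57BL/6N corneas 1 to 4 it had 9.97, 9.99, 9.36 and 9.59. The strains did not overlap, and the BALB/c corneas lay much closer together (10.75 ± 0.0448, SD, n = 4) than the C57BL/6N corneas (9.73 ± 0.305, SD, n = 4). *Plat* was 1.03 higher in BALB/c (SE 0.131, 95% interval 0.73 to 1.32), a 2.04-fold difference with an adjusted p of 0.000875 in limma. An exact two-sided permutation test gave p = 0.0286, the smallest that 4 against 4 corneas allow. *Plat* was the 1 called gene of the 8 tested, where 5.74% of all tested genes were called and 2.83% were called higher in BALB/c. Without 1 cornea at a time its difference stayed between 0.90 and 1.11 and it was called each time.

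Within C57BL/6N, the lower *Plat* values were those of corneas 3 and 4, which also had the lower stromal marker level. BALB/c cornea 2 had a lower stromal level as well and the highest *Plat* value of all. In the 5 corneas with the higher stromal level (3 BALB/c, 2 C57BL/6N), *Plat* was 0.76 higher in BALB/c, with an adjusted p of 0.000828 in limma. In the 3 others (1 BALB/c, 2 C57BL/6N) it was 1.32 higher, a value given without a test because 1 strain has a single cornea there. With the mean of the stromal markers as a covariate the difference was 0.93 and the adjusted p 3.64e-05. Without the BALB/c corneas 1 and 4, rich in lens and pigment markers, it was 1.05, with an adjusted p of 0.0256, above the threshold. None of the 7 stromal markers was called between the strains, and all 7 were higher in BALB/c on average, with summed levels of 16.8 to 18.1 in BALB/c and 16.03 to 18.45 in C57BL/6N. The call was also lost against an empirical null distribution, with an adjusted p of 0.492 in limma, but this null called 0 of 25402 genes. The study recalibrated p-values too, but by another method and from a test of counts. It reported genes at an adjusted p of 0.01, so this loss is not a result of the study's own test.

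The neighbours of *Plat* on chromosome 8 were *Ikbkb*, a kinase of the NF-kappa-B pathway, and *Ap3m2*, a subunit of an adaptor complex for vesicle transport. *Ikbkb*, 51.1 kb before *Plat*, differed by -0.05 (adjusted p = 0.661 in limma). *Ap3m2*, 4.51 kb after *Plat* and on the opposite strand, had rlog values of 7.87, 7.77, 7.57 and 8.16 in BALB/c and 7.47, 7.38, 7.03 and 7.21 in C57BL/6N. The strains did not overlap for *Ap3m2* either, with a difference of 0.57 and an adjusted p of 0.0286, which missed the threshold.

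Urokinase lay between a call and no difference. *Plau* (chromosome 14, 20836660 to 20843385, plus strand) had rlog values of 9.08, 9.05, 8.91 and 9.14 in BALB/c and 8.92, 8.57, 8.64 and 8.66 in C57BL/6N. C57BL/6N cornea 1 reached above BALB/c cornea 3, and the other 3 C57BL/6N corneas lay below all BALB/c corneas. The mean was 0.35 higher in BALB/c (SE 0.0891, 95% interval 0.15 to 0.55), with an adjusted p of 0.0344 in limma and an exact permutation p of 0.0571.

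**Figure D1:**
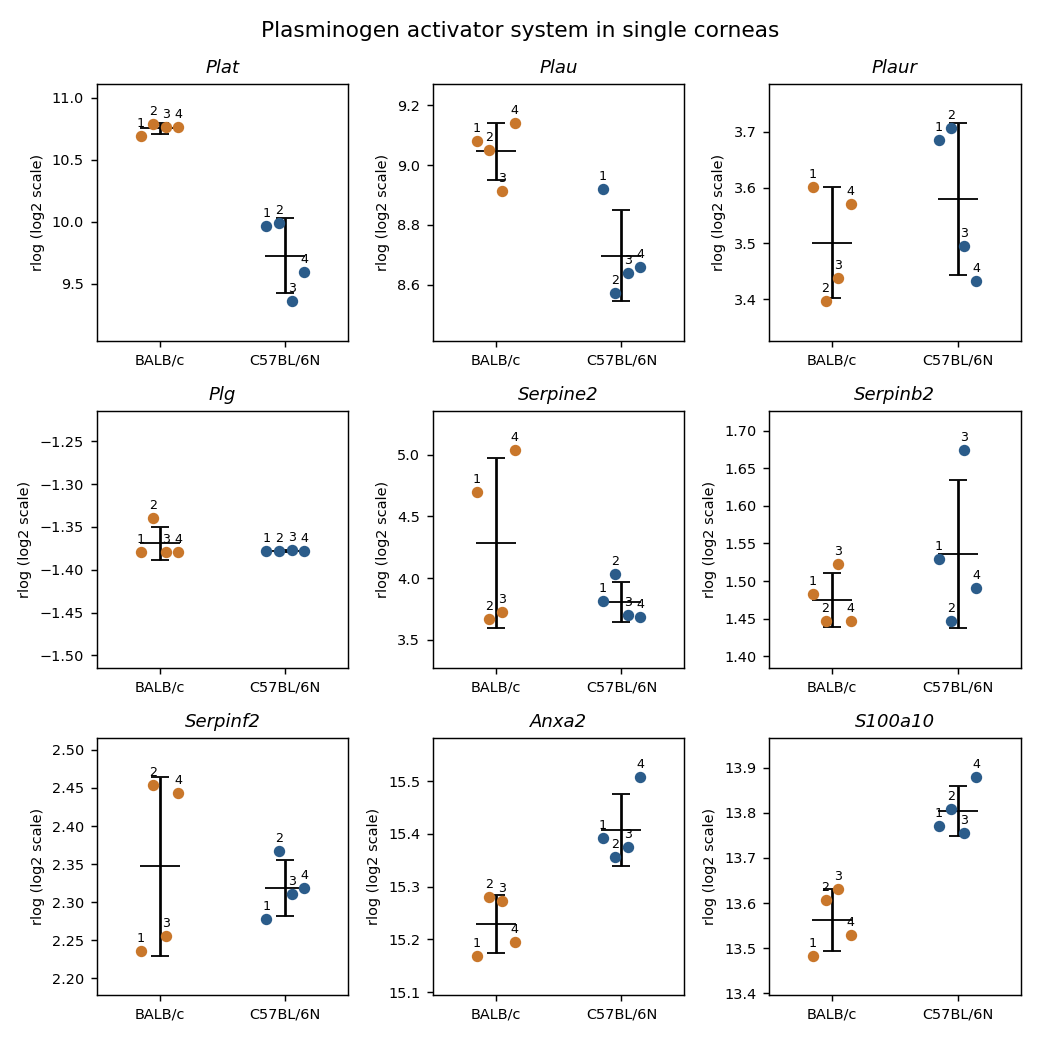
Rlog value (log2 scale, a separate range in each panel) of the 9 genes in each cornea, by strain. Points are corneas with their replicate number, and the bars give the mean and SD over 4 corneas. The BALB/c corneas lie above all C57BL/6N corneas for Plat and below them for Anxa2 and S100a10, and BALB/c corneas 1 and 4 stand apart for Serpine2.

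The urokinase receptor was weakly expressed in both strains. *Plaur* (chromosome 7, 24462484 to 24475968, plus strand), whose product is tied to the cell surface by a lipid anchor, had rlog values of 3.60, 3.40, 3.44 and 3.57 in BALB/c and 3.68, 3.71, 3.50 and 3.43 in C57BL/6N. The strains overlapped, with a difference of -0.08 (95% interval -0.27 to 0.11, adjusted p = 0.623 in limma). In each strain the lower values were those of the corneas with the lower stromal level, and in BALB/c also that of cornea 3. The deviations of *Plaur* from the strain means had a Pearson r of 0.89 with those of the stromal marker level and 0.96 with those of the macrophage markers over the 8 corneas, which share their libraries and tissue content. Other lists gave high values too: 0.93 for lymphatic endothelium, 0.91 for corneal endothelium, 0.84 for blood endothelium, 0.80 for Schwann cells and 0.77 for skeletal muscle. The r was -0.89 for the corneal epithelium markers, and 0.56, 0.59 and -0.05 for lens, pigment cells and conjunctiva. None of the 7 macrophage markers was called or at 0, and their summed level was 10.6 to 10.9 in BALB/c and 10.5 to 10.8 in C57BL/6N. The part of any of these tissues in the level of *Plaur* was not tested.

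Plasminogen itself was close to the lowest values of the table. *Plg* (chromosome 17, 12378608 to 12419385, plus strand) is made mainly by the liver and reaches tissues with the blood. It had an rlog of -1.38 in 7 corneas and -1.34 in BALB/c cornea 2, and was not tested. Exons of *Plg* overlap those of *Slc22a3* on the opposite strand (mean rlog -1.03), and whether the counting used strand is not given in the sources used here. The liver markers *Alb* and *Fga* were listed at 0 in every cornea, and the summed level of the 5 liver markers was 2.92 to 2.95 in BALB/c and 2.91 to 3.003 in C57BL/6N. Because an rlog of 0 still adds to a sum on the linear scale, *Alb* and *Fga* raise this sum, and it overstates the liver markers. The highest of them, *Apoa1*, was at 1.41 to 1.62.

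The co-receptor pair was the most abundant of the system, and both of its genes had lower values in BALB/c. *Anxa2* (chromosome 9, 69453620 to 69491795, plus strand) had rlog values of 15.17, 15.28, 15.27 and 15.19 in BALB/c and 15.39, 15.36, 15.37 and 15.51 in C57BL/6N. *S100a10* (chromosome 3, 93555080 to 93564643, plus strand) had 13.48, 13.61, 13.63 and 13.53 in BALB/c and 13.77, 13.81, 13.76 and 13.88 in C57BL/6N. Neither gene overlapped between the strains. *Anxa2* differed by -0.18 (SE 0.0481, 95% interval -0.29 to -0.07, adjusted p = 0.0426) and *S100a10* by -0.24 (SE 0.0498, 95% interval -0.35 to -0.13, adjusted p = 0.0128, both limma). The exact permutation test gave p = 0.0286 for each. Both thus missed the threshold of 0.01, and 2.91% of all tested genes were called lower in BALB/c. *Plat*, *Anxa2* and *S100a10* made 3 of 8 tested genes without overlap between the strains, against 18.3% of all tested genes.

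How far the pair differed turned on scaling and on the corneas used. *S100a10* reached an adjusted p of 0.00802 after quantile normalization and 0.00525 with the stromal level as a covariate. After centring each cornea on its median, which moved the median difference of all tested genes from 0.01 to -0.07, *S100a10* differed by -0.31 and its adjusted p was 0.106. *Anxa2* then differed by -0.25, with an adjusted p of 0.22. Its difference shrank to -0.09 after quantile normalization. Without the BALB/c corneas 1 and 4, *Anxa2* differed by -0.13 (adjusted p = 0.327) and *S100a10* by -0.18 (adjusted p = 0.146, both limma). That fit has fewer corneas. Exons of *Anxa2* overlap a weakly expressed gene on the other strand, *Gm16144* (mean rlog 1.12).

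Conjunctiva markers also differed between the strains, not all in 1 direction. Of these 5 markers, *Krt13*, *Krt4*, *Krt19* and *Muc4* were called lower in BALB/c and none was at 0. *Muc5ac*, a marker of goblet cells, had the opposite sign: it was 2.19 higher in BALB/c without overlap between the strains, and missed the threshold (adjusted p = 0.0225 in limma). The summed level of the 5 was 19.1 to 19.6 in BALB/c and 19.71 to 19.97 in C57BL/6N. Nearly all of this sum came from *Muc4*, so it is no measure of the amount of conjunctiva. Over the 8 corneas the mean of these 5 markers had a Pearson r of 0.80 with *Anxa2* and 0.85 with *S100a10*, and of 0.29 and 0.36 for deviations from the strain means. With *Plat* the r was -0.75, and 0.21 for these deviations. The 7 corneal epithelium markers, none called, had an r of 0.80 with *Anxa2* and 0.74 with *S100a10*, and of 0.80 and 0.76 for these deviations. All 7 were lower in BALB/c on average, as *Anxa2* and *S100a10* were, with differences from -0.002 for *Krt12* to -0.20 for *Pax6*. Their summed level, set mainly by the highest of them, was 20.7 to 20.9 in BALB/c and 20.7 to 20.8 in C57BL/6N.

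Markers of lymphatic endothelium went with the same genes, and lens markers with *Anxa2* and *S100a10*. Of the 4 lymphatic markers none was called or at 0, but *Flt4* (0.67 higher in BALB/c, adjusted p = 0.023) and *Pdpn* (0.41 higher, adjusted p = 0.0465, both limma) did not overlap between the strains. *Lyve1* and *Prox1* overlapped. The summed level of the 4 was 11.9 to 12.1 in BALB/c and 11.3 to 11.8 in C57BL/6N. Nearly all of this sum came from *Pdpn*, while *Lyve1* was only at 1.27 to 1.41, so it is no measure of the amount of lymphatic tissue. The mean of the 4 markers had an r of 0.76 with *Plat*, -0.86 with *Anxa2* and -0.77 with *S100a10*. For deviations from the strain means these were 0.57, -0.76 and -0.58. The r of such deviations of *Plat* was larger with the stromal keratocyte markers (0.80) and the corneal endothelium markers (0.77). The 7 lens markers, whose summed levels are given with *Serpine2*, had an r of 0.42 with *Plat*, -0.76 with *Anxa2* and -0.78 with *S100a10*, and of -0.22, -0.72 and -0.88 for these deviations. The part of these tissues and of the conjunctiva in the differences of *Plat*, *Anxa2* and *S100a10* was not tested.

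*Anxa2* and *S100a10* went up and down together from cornea to cornea. Pearson's r between them was 0.97 and Spearman's rho 0.90 over 8 corneas, 0.88 for deviations from the strain means, and between 0.95 and 0.99 with 1 cornea left out. Among 16014 tested protein-coding genes, *S100a10* ranked 27 by r with *Anxa2*, and *Anxa2* ranked 36 with *S100a10*. The other pairs of partners were looser. Of the enzyme and its receptor, *Plau* and *Plaur* had r = -0.10. Of enzyme and inhibitor, *Plau* and *Serpinb2* had r = -0.41 and *Plat* and *Serpine2* had r = 0.48. *Plg* and *Serpinf2*, for plasminogen and the inhibitor of plasmin, had r = 0.60, with *Plg* near constant. *Plat* and *Plau*, the activators, had r = 0.84, which fell to 0.27 for deviations from the strain means.

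Over the promoters of the system, RefSeq (GRCm38.p6) gave windows for *Plaur*, *Serpine2*, *Serpinb2*, *Serpinf2* and *Anxa2*. Those of *Plaur* and *Serpinb2*, the receptor and an inhibitor of urokinase, are shown because each holds an AP-1 site, a kind of site known from genes of this system, and because both end before the gene starts given by GENCODE. Each is the 250 bases before a RefSeq start, with the GC box GGGCGG, the TATA box TATAAA and the AP-1 site TGANTCA in capitals, searched on both strands.

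Plaur, chr7:24462233-24462482, plus strand: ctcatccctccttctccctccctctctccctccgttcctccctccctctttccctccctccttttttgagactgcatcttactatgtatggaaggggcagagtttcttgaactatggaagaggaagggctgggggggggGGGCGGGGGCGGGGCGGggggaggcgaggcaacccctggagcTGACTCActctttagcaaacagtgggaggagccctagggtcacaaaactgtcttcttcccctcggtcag

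Serpinb2, chr1:107511173-107511422, plus strand: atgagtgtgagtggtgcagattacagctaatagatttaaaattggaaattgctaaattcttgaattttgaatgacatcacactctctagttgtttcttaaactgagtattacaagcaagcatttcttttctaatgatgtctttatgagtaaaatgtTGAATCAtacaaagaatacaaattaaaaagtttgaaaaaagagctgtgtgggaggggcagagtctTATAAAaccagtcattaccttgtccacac

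The *Plaur* window held 3 GC boxes in a row, of which neighbours share a base or adjoin, 1 AP-1 site and no TATA box, and 59.6% of its bases were G or C. RefSeq gave 2 overlapping windows for *Serpinb2*, for different starts, and the one shown held 1 TATA box, 1 AP-1 site and no GC box, with 32.4% G or C. The other held the same motifs, with 38.4% G or C. *Anxa2* also had an AP-1 site, and *Serpine2* and *Serpinf2* had none. The *Anxa2* window is not shown, since its RefSeq start lies inside the gene as GENCODE draws it. Of 32851 promoter windows of the same length, 32.7% held the GC box, 12.4% the TATA box and 6.75% the AP-1 site, and the median G and C content was 52.4%. These matches describe the letters of the reference and are no evidence of binding.

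Of the inhibitors, none was called. *Serpine2* (chromosome 1, 79794197 to 79861180, minus strand) encodes protease nexin-1, which blocks thrombin, urokinase and tissue-type activator. Its rlog values were 4.70, 3.67, 3.73 and 5.04 in BALB/c and 3.82, 4.04, 3.70 and 3.68 in C57BL/6N. BALB/c corneas 1 and 4 stood above the other 6 corneas, and BALB/c corneas 2 and 3 lay within the C57BL/6N range or just below it. The difference of the means was 0.47 (SE 0.289, 95% interval -0.18 to 1.12, adjusted p = 0.364 in limma), and without BALB/c corneas 1 and 4 it was -0.11 (adjusted p = 0.72).

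*Serpine2* went with markers of other tissues. The same BALB/c corneas 1 and 4 carried the higher lens and pigment level. The blood endothelium markers had means of 6.59 and 6.998 there, against 5.21 to 5.98 in the other 6 corneas, with *Cdh5* at 6.49 and 7.48 against 4.47 to 5.42. Over the 8 corneas *Serpine2* had a Pearson r of 0.97 with the mean of the 5 blood endothelium markers, 0.93 with the 4 Schwann cell markers, 0.89 with the 6 pigment cell markers and 0.88 with the 7 lens markers. No marker of these lists was called between the strains and none was at 0. The summed level was 9.34 to 10.5 in BALB/c and 8.59 to 10.5 in C57BL/6N for blood endothelium, 7.93 to 10.2 and 7.98 to 10.8 for Schwann cells, 9.13 to 14.6 and 10.1 to 11.7 for pigment cells, and 9.02 to 11.9 and 8.56 to 9.29 for lens. The part of these tissues in the level of *Serpine2* was not tested.

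**Figure D2:**
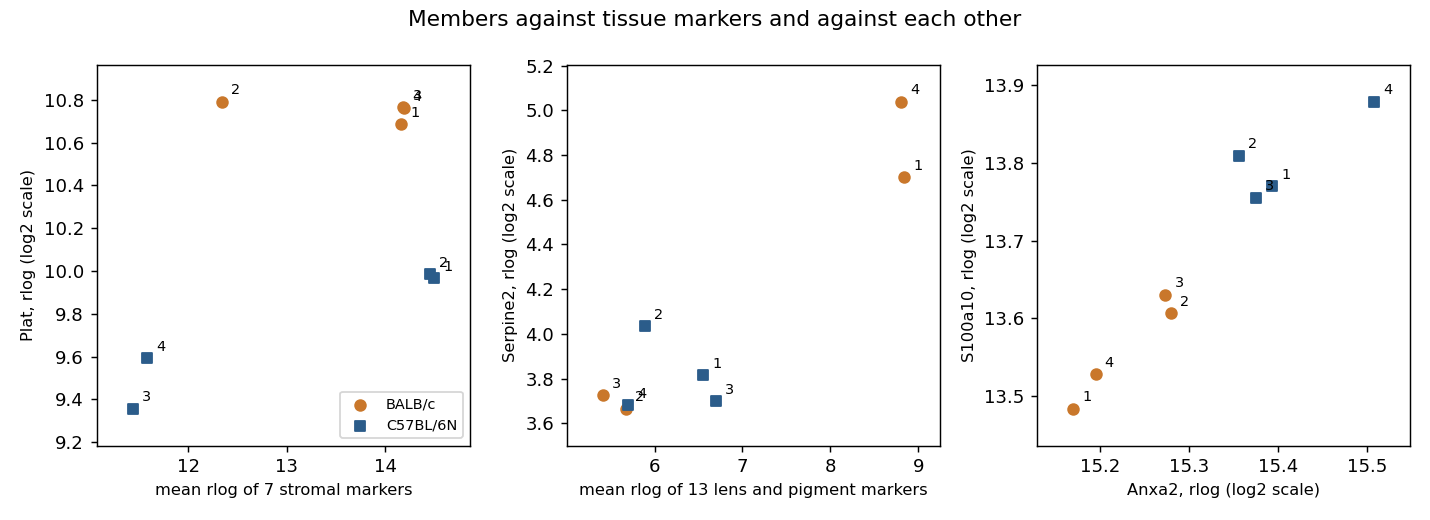
Each point is 1 cornea with its replicate number, circles for BALB/c and squares for C57BL/6N, all on the rlog (log2) scale. Left, Plat against the mean of 7 stromal markers, where the BALB/c points lie above the C57BL/6N points on the Plat axis, with 1 BALB/c and 2 C57BL/6N corneas at the lower stromal level. Middle, Serpine2 against the mean of 13 lens and pigment markers, where BALB/c corneas 1 and 4 lie far from the other 6. Right, S100a10 against Anxa2, where the corneas lie along a line with the BALB/c corneas at its lower end.

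*Serpinb2* (chromosome 1, 107511423 to 107535478, plus strand), an inhibitor of urokinase found largely inside cells, stayed between 1.45 and 1.67 in all corneas. Its strains overlapped, with a difference of -0.06 (95% interval -0.17 to 0.05, adjusted p = 0.491 in limma). It shares a stretch of 238 identical exon bases with *Serpinb10* on the same strand (mean rlog 3.37), so reads from this stretch cannot be assigned to either gene. *Serpinf2* (chromosome 11, 75431732 to 75439591, minus strand) encodes alpha-2-antiplasmin, the main inhibitor of plasmin in blood. It lay between 2.24 and 2.45 in BALB/c and between 2.28 and 2.37 in C57BL/6N, with a difference of 0.03 (95% interval -0.10 to 0.16, adjusted p = 0.816 in limma). BALB/c corneas 2 and 4 were its highest and BALB/c corneas 1 and 3 its lowest.

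Per length of exons (rlog minus log2 of the exon length in kb), the genes fell into levels far apart. *Anxa2* had means of 13.3 in BALB/c and 13.5 in C57BL/6N, and *S100a10* had the same 13.3 and 13.5, so that the pair overlapped in both strains. *Plau* followed at 7.80 and 7.45, and *Plat* at 8.11 and 7.08. The order of the activators differed between the strains: *Plat* lay above *Plau* in all BALB/c corneas (8.05 to 8.15 against 7.67 to 7.90), and in C57BL/6N it lay lower on average, with overlap (6.72 to 7.34 against 7.33 to 7.68). *Plaur* was next at 2.11 and 2.19. *Serpinf2* (1.13 and 1.102) and *Serpine2* (1.23 and 0.76) overlapped in BALB/c but not in C57BL/6N, and *Serpinb2* (0.24 and 0.30) lay below both. *Plg* was last at -3.26 and -3.27.

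The order in the middle depended on which length was used. With the longest protein-coding transcript in place of all exons, *Plat* stood at 9.42 in BALB/c and 8.39 in C57BL/6N, above *Plau* (7.82 and 7.47) in both strains. *Serpine2*, whose exons together are much longer than its coding transcript, rose to 3.14 and 2.66, near *Plaur* at 2.91 and 2.99.

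**Figure D3:**
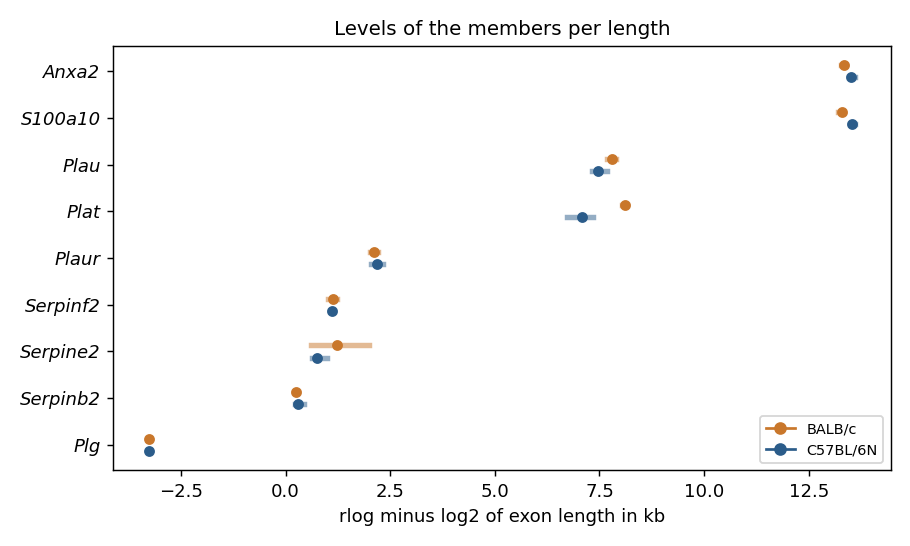
Level of each gene as rlog minus log2 of its exon length in kb, with points for the mean of 4 corneas and bars from the lowest to the highest cornea, by strain. Anxa2 and S100a10 lie near 13.4, both activators between 7.08 and 8.11 on average, and Plg below 0.

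The genes with the pattern most like each member were found by Pearson's r over 8 corneas among 16014 tested protein-coding genes. For *Plat* these were *Tm7sf3* (0.998), *Htra3* (0.995), which encodes a secreted serine protease, and *Susd4* (0.993). For *Plau* they were *Ccdc14* (0.978), *Hscb* (0.972) and *Ppia* (0.963), and for *Plaur* they were *Acss3* (0.985), *Uchl1* (0.985) and *Pgm5* (0.979). *Serpine2* was closest to *Tspan18* (0.994), *Robo4* (0.993), a receptor of endothelial cells, and *Gfra2* (0.992). *Anxa2* was closest to *Rac1* (0.996), *Cttn* (0.990), which encodes an actin-binding protein, and *Top2b* (0.986), and *S100a10* to *Uggt1* (0.991), *Gmds* (0.986) and *Pgm2* (0.985). The near-constant *Serpinb2* and *Serpinf2* reached 0.978 with *Gm17949* and 0.963 with *Mex3d*. These values describe 8 corneas that share strain and tissue content.

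A list of 32 other genes of the plasmin system, made of activating proteases, plasminogen receptors, uptake receptors, inhibitors and substrates, had 26 tested genes. Of these, 3 were called higher in BALB/c and none lower, against 2.83% and 2.91% of all tested genes, and 7 of the 26 did not overlap, against 18.3% of all tested genes. Their median difference was 0.13 and the median size of the difference 0.18. Over the 8 tested members these medians were -0.02 and 0.21, and over all tested genes 0.01 and 0.09.

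*Vldlr*, a receptor that takes up complexes of urokinase and its inhibitors, was 0.91 higher in BALB/c (adjusted p = 0.00143 in limma). Its values were 9.15, 9.40, 9.25 and 9.10 against 8.29, 7.99, 8.40 and 8.60. *Tgfb1*, whose latent product plasmin can activate, was 0.62 higher (adjusted p = 0.00126), with 11.57, 11.54, 11.78 and 11.66 against 11.11, 11.17, 10.95 and 10.84. Both thus had no overlap between the strains. The third called gene, *Eno1*, a glycolytic enzyme that also binds plasminogen at the cell surface, was 0.36 higher (adjusted p = 0.00236) but is uncertain, since *Eno1b* and the pseudogene *Gm4735* are over 95% identical to it and are listed at mean rlog values of 10.1 and 6.93.

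Other receptors and substrates missed the threshold of 0.01. The plasminogen receptor *Plgrkt* differed by 0.24 (adjusted p = 0.0275). *Fn1*, fibronectin, differed by -0.47 (adjusted p = 0.0365), *Igf2r* by -0.17 (adjusted p = 0.034) and the integrin chain *Itgav* by -0.18 (adjusted p = 0.0358). These 4 genes did not overlap between the strains. *Fn1* was called lower in BALB/c after median centring, with the stromal level as a covariate and in the 5 corneas with the higher stromal level. *Lrp1*, the main uptake receptor of activator complexes, differed by 0.13 (95% interval -0.26 to 0.52, adjusted p = 0.695).

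Broad inhibitors in the same list followed the stromal level. *A2m* encodes alpha-2-macroglobulin and had 15.67, 13.84, 15.69 and 15.65 in BALB/c and 16.14, 16.13, 12.73 and 12.69 in C57BL/6N. *Serping1*, the C1 inhibitor, had 12.01, 10.28, 11.83 and 11.99 in BALB/c and 12.23, 12.13, 9.56 and 9.42 in C57BL/6N. Both were lowest in the 3 corneas with the lower stromal level, the strains overlapped, and the adjusted p was 0.63 for *A2m* and 0.60 for *Serping1* in limma. In the corneas with the higher stromal level alone, *A2m* was called lower in BALB/c (15.67, 15.69 and 15.65 against 16.14 and 16.13), and *Serping1* was not called. *St14*, encoding the membrane protease matriptase that can activate pro-urokinase, was at 12.33 to 12.60 over the corneas (adjusted p = 0.901). Its inhibitors *Spint1* and *Spint2* were at 12.65 to 13.13 and 13.87 to 14.20 (adjusted p = 0.321 and 0.923). Of the fibrinogen chains, *Fga* was listed at 0 throughout, *Fgb* was below the filter, and *Fgg* was at 0.10 to 0.26.

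**Figure D4:**
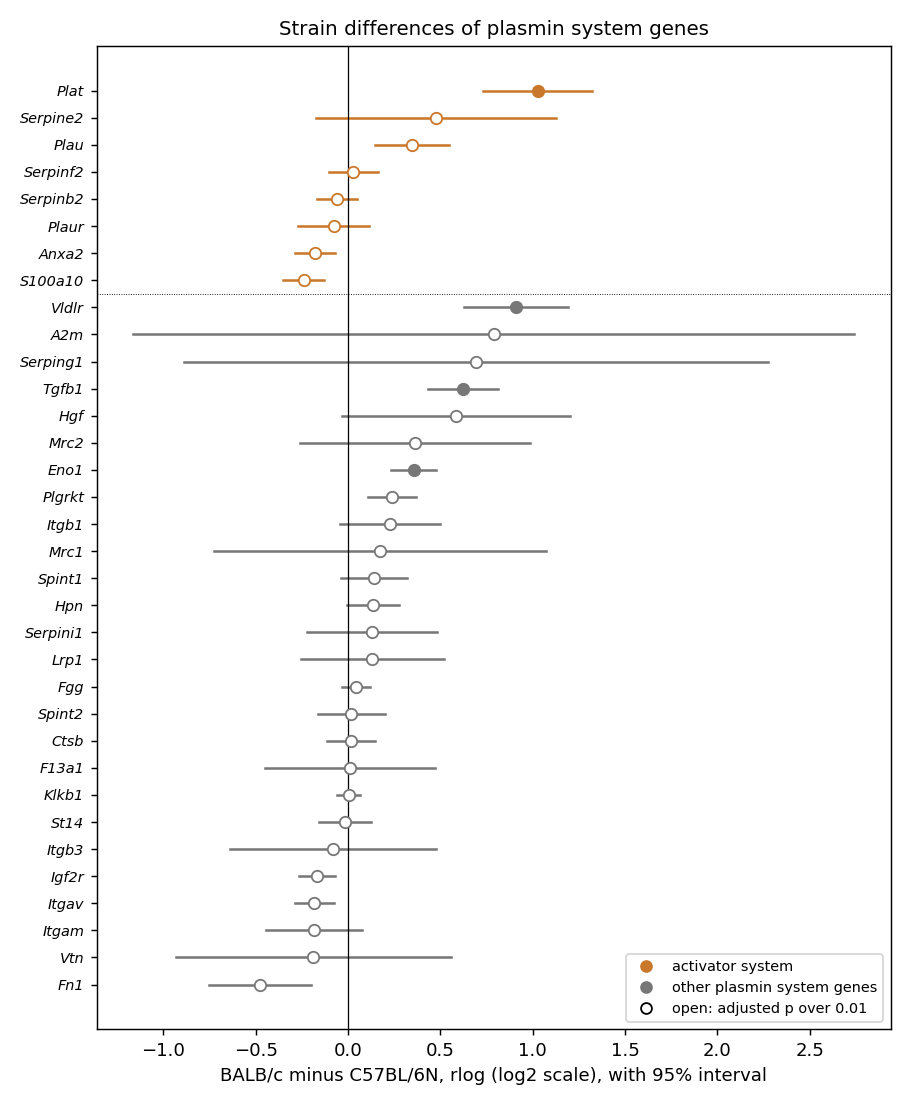
Difference in rlog (log2 scale) between BALB/c and C57BL/6N with its 95% interval from limma, for the 8 tested members (orange, above the dotted line) and the 26 tested genes of the other plasmin system list (grey). Filled points have an adjusted p of 0.01 or less. Plat, Vldlr, Tgfb1 and Eno1 are filled, all higher in BALB/c, and the intervals of A2m and Serping1 are the widest.

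A list of 17 relatives and partners of the co-receptor (8 annexins, 7 S100 genes, *Ahnak* and *Dlc1*) had all genes tested. Of these, 2 were called lower in BALB/c and none higher, against 2.91% and 2.83% of all tested genes. The 4 of 17 without overlap compare with 18.3% of all tested genes, and the median difference was 0.05. The called genes were *Anxa11*, with a difference of -0.45 (adjusted p = 0.0026), and *Anxa6*, with a difference of -0.38 (adjusted p = 0.00765). Each of these calls was lost in some of the alternatives given below. *Anxa1*, which like annexin A2 binds an S100 partner, had a difference opposite in sign to that of *Anxa2*, 0.41 (adjusted p = 0.0555), as had *S100a16* with 0.24 (adjusted p = 0.0587). *S100a11*, the gene beside *S100a10* on chromosome 3, differed by -0.14, with overlap (adjusted p = 0.617). *Ahnak*, a giant protein that binds the annexin A2 and S100A10 complex, was the most abundant of the list before any scaling for length at 17.71 to 17.84 and differed by -0.04 (95% interval -0.13 to 0.04, adjusted p = 0.527).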

How the data were processed

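Strand-specific libraries from the total RNA of 8 corneas, 4 per strain, gave paired reads of 100 bases. After trimming and removal of ribosomal and transfer RNA, the authors aligned reads to strain pseudo-genomes of GRCm38 with TopHat2 2.1.1, counted them per Ensembl gene with HTSeq 0.7.1 and deposited rlog values (DESeq2 1.30), a log2 scale with decimal commas and no raw counts. Columns were mapped to corneas by the labels, and 0 were left unused.

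The 25402 genes with a mean rlog of at least 0 entered limma 3.58.1 (in R 4.3.3), with a variance trend and Benjamini-Hochberg adjustment. Exact permutation tests of single genes, two-sided, ran in R over all equal splits of the corneas, and Spearman's rho used scipy 1.17.1. The fit was tested on simulated data. Names and exon lengths came from GENCODE M21, which held 31302 of the 31314 genes not at 0 in every cornea, and copies were searched with BLAST 2.17.0 (at least 95% identity over at least 200 bases). Stromal and lens or pigment levels are means of marker genes, and summed levels are log2 of the sum of the markers' values on the linear scale. Such a sum is set mainly by the highest markers of a list.

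The 9 members and all lists were chosen with earlier results of these data known. Genes named are the members, the lists, markers that touch a member, the 3 genes with the highest r per member and the neighbours of called members. *Gm16144*, *Slc22a3*, *Serpinb10*, *Eno1b* and *Gm4735* are named for sharing sequence with these. Alternatives were no variance trend, a robust fit, other filters, median centring, quantile normalization, an empirical null, a replicate block, a stromal covariate, a threshold of 0.05, leaving out each cornea, and another length. Splits by stromal or by lens and pigment level were chosen after seeing the data.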

Additional observations from a re-analysis of the deposited data

Results flagged for a closer look

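Of 104 groups of 4 corneas (the members and the tested list genes, by strain), 11 had a single cornea far from the other 3, by a gap to the nearest of the others as a share of the whole range. Chance alone gives about 1 in 20, or 5.2 groups. Of the 9 genes of the activator system, *Plg* was among them, with BALB/c cornea 2 the highest at -1.34 against -1.38 (share 0.980), close to the lowest values of the table. BALB/c cornea 2, which had the lower stromal level, was the lowest of its strain for *A2m* (share 0.979), *Serping1* (0.896), *Fn1* (0.871) and *Plgrkt* (0.832). C57BL/6N cornea 2 was the lowest for *Plgrkt* (0.851) and *Anxa11* (0.869) and the highest for *Vtn* (0.960), at 4.79 against 3.28 or less. BALB/c cornea 3 was the highest for *Anxa4* (0.889), at 10.53 against 10.50 or less, and for *Fgg* (0.889), and C57BL/6N cornea 3 was the highest for *Fgg* (0.833), where its strain varied only between 0.0977 and 0.0983.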

How the results depend on the processing

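Differences of the 8 tested genes kept their sign under the alternatives run, except *Serpine2* in 2 and *Serpinf2* in 4, neither of them called in any. The empirical null (SD 1.682) left 0 of 25402 genes called by limma, with 1690 at an unadjusted p under 0.05 and a smallest adjusted p of 0.151, so that 0 members, 0 other plasmin system genes and 0 annexin and S100 genes were called. Members called were 2 after quantile normalization, 2 with the stromal covariate, 4 at an adjusted p of 0.05, and 0 without the BALB/c corneas rich in lens and pigment transcripts. The other plasmin system list had 5 calls with the stromal covariate, 7 at 0.05, and 0 without these BALB/c corneas. The annexin and S100 list had 1 call with no variance trend, 1 with no filter, 1 after median centring, 6 with the stromal covariate, 1 in the corneas with the higher stromal level and 0 without these BALB/c corneas. The fit in the corneas with the lower stromal level (1 BALB/c, 2 C57BL/6N) called 0 genes of the whole table (smallest adjusted p 0.142, 4020 at an unadjusted p under 0.05), and so 0 of each list, and says nothing about stability. Without 1 cornea at a time, 1 member was called each time and the annexin and S100 calls ranged from 0 (without C57BL/6N cornea 4) to 2. *Anxa6*, lost in most of these fits, is thus a call near the threshold. *Anxa11* was lost without C57BL/6N cornea 4, after median centring and in the corneas with the higher stromal level. Genes called over the whole table were 1458 as reported, 554 with the replicate block, 2367 with the stromal covariate, 2842 at 0.05, 958 after median centring (413 higher, 545 lower), 852 in the corneas with the higher stromal level, and 457 without the BALB/c corneas rich in lens and pigment transcripts. The last 2 have fewer corneas, and the other causes were not tested.

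The replicate numbers were not taken as a pairing: deviations from the strain means of same-numbered corneas correlated at 0.31, -0.53, -0.20 and -0.45. With the replicate block *Plat* was called (adjusted p = 0.00896), as 1 member, and 0 other plasmin system and 0 annexin and S100 genes were called.

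Levels per length moved by more than 1 SD with the coding transcript length for all genes but *Plau*, and for *Serpinf2* only in C57BL/6N. The r of *Plau* and *Plaur* was -0.75 after median centring and -0.29 to 0.30 with 1 cornea left out. Read depth is unknown, so the precision of the weakly expressed *Plaur*, *Serpinb2* and *Serpinf2* cannot be given.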
